A study of Homo sapiens with 2 samples.

Results

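The 8 genes described here, best known for proteins made by the liver, were followed in eBCs, the enhanced beta-clusters grown from human embryonic stem cells. They were TTR, RBP4, APOA1, APOA2, SERPINA1, AFP, ITIH1 and FABP1, chosen by symbol, and all 8 of them were found among the 33694 genes counted. The eBCs came from the iSOX9KO line, which was made in Mel1-INS-GFP cells, a human stem cell line with a GFP reporter at the insulin locus, and which carries a doxycycline-inducible Cas9 with guides against SOX9. A single 10X Genomics library was labelled NO DOX and another PLUS DOX, so there was 1 library per condition and no spread between replicates. By the study's description the latter cells had DOX at 2 ug/ml from day 12 of differentiation, and the former had none (0 ug/ml). Both libraries came from a single clone, from cells that had been sorted for high GFP before they were reaggregated, and from live cells sorted again before loading. The study asked what SOX9 does in human beta cells, and the question here is where these 8 genes were expressed and how their levels compared between the libraries.

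SOX9 itself, the targeted gene (ENSG00000125398), was measured at 2.998 CPM (UMIs of the gene scaled to the same total in each library) in the no-DOX-labelled library and at 3.778 CPM in the DOX-labelled library, a log2 ratio of 0.33 (95% interval 0.21 to 0.46). Within the endocrine classes the log2 ratio was -0.10 (-0.34 to 0.14), and in duct-like cells the levels were 255 and 284 CPM. SOX9 RNA was therefore not lower over all cells in the DOX-labelled library. The cut at the gene itself cannot be read from these counts. In separate assays of this line the study reports editing of the SOX9 locus and less SOX9 protein with DOX. Since the counts do not show the cut, the libraries are called by their labels throughout. A ratio between libraries always stands for the DOX-labelled over the no-DOX-labelled one. The intervals are exact (Poisson for a level, conditional binomial for a ratio) and cover counting error only. UMIs of 1 cell are not independent, so the intervals are too narrow where few cells hold most of a gene.

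As background, transthyretin (TTR) carries thyroid hormone in plasma and also binds retinol-binding protein (RBP4), which brings retinol out of the liver. Apolipoproteins A-I and A-II (APOA1, APOA2) are the main proteins of high density lipoprotein. Alpha-1 antitrypsin (SERPINA1) inhibits neutrophil elastase, ITIH1 is a heavy chain that is linked to hyaluronan, AFP is the albumin-related plasma protein of the fetus, and FABP1 is a fatty acid binding protein that stays in the cytosol and is not secreted. The pancreas and the liver both arise from foregut endoderm and share many transcription factors, and TTR is a known product of islet endocrine cells.

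By Ensembl identifier in GENCODE 44 on GRCh38, TTR (ENSG00000118271) lies on the plus strand at chr18:31557009-31598833, RBP4 (ENSG00000138207) on the minus strand at chr10:93591687-93601744, APOA1 (ENSG00000118137) on the minus strand at chr11:116835751-116837622 and APOA2 (ENSG00000158874) on the minus strand at chr1:161222292-161223631. SERPINA1 (ENSG00000197249) lies on the minus strand at chr14:94376747-94390693, AFP (ENSG00000081051) on the plus strand at chr4:73431138-73456174, ITIH1 (ENSG00000055957) on the plus strand at chr3:52777595-52792068 and FABP1 (ENSG00000163586) on the minus strand at chr2:88122982-88128062. RBP4 overlaps FFAR4 and APOA1 overlaps APOA1-AS, both on the opposite strand, and reads of such partners could not be told apart where strand was not used in counting.

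Promoters (250 bases before to 50 after the start, from RefSeq on GRCh38.p14) were given for 6 of the 8 genes, and not for TTR or APOA1. The letters TATAAA, the core of the TATA box that places the start of transcription, were searched on both strands (on the other strand they read TTTATA) and were found in 3 of these 6 genes, against 11.5% of 35116 promoters and 14% of 27305 genes. The 60 bases before the start are shown for these 3 genes, because each held the match on the strand of the gene a short way before the start. They read 5′ to 3′ on the strand of the gene, with the match in capitals, and lie at chr2:88128063-88128122 (minus strand) for FABP1, chr4:73436161-73436220 (plus strand) for AFP and chr10:93601236-93601295 (minus strand) for RBP4. The AFP and RBP4 windows lie inside the span that GENCODE gives the gene, and RBP4 has other RefSeq starts.
FABP1: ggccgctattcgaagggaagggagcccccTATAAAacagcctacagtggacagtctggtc
AFP: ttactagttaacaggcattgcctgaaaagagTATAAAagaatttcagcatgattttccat
RBP4: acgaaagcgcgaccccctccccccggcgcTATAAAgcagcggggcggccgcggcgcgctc
The match started 31 bases before the RefSeq start in FABP1 and RBP4 and 29 before it in AFP. CAAAGTCCA, an HNF4 motif (TGGACTTTG on the other strand), was found in 0 of the 6 genes and in 0.384% of promoters. A match is a run of letters, and no binding was measured.

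The libraries held 30288 barcodes (labelled no DOX, median 15991 UMIs) and 31817 barcodes (labelled DOX, median 14431 UMIs), of which 44926 were kept as cells after removal of 7895 and 8338 doublets (26.6% and 26.5%), and 369 barcodes were in both libraries. Cells were clustered without the 8 genes and without the related genes listed further on, and named from markers. This gave 17295 beta-like cells (markers such as IAPP and ENTPD3), 10181 beta-progenitor-like cells (TPH1 and FEV) and 9657 alpha-like cells (GCG). There were 4611 delta-like cells (SST, HHEX) and 515 proliferating progenitor-like cells, with 328 duct-like cells as the smallest class. The beta-progenitor-like name follows the study's progenitor-like population with FEV, and the lineage of these cells was not tested. A further 2339 cells, with a median of 70.7% mitochondrial UMIs, were left unnamed. Insulin RNA was counted in every class, from 18620 CPM in duct-like cells to 193262 CPM in beta-like cells in the no-DOX-labelled library. In that library alpha-like cells had 146014 CPM of insulin and delta-like cells 143951 CPM. The study describes its alpha-like and delta-like populations as bi-hormonal.

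TTR was detected in nearly every cell and followed the class strongly. It was highest in alpha-like cells, at 37432 CPM (37387 to 37477) in the no-DOX-labelled library and 41884 CPM (41830 to 41937) in the DOX-labelled one. In beta-like cells it stood at 25612 and 23742 CPM, and in delta-like cells at 8489.5 and 7212 CPM. Lower still were beta-progenitor-like cells at 4713 and 4389 CPM, with duct-like cells lowest at 2191 and 1961 CPM. The highest class was 17.1-fold and 21.4-fold above the lowest. In duct-like cells there were 11.8 and 13.4 TTR UMIs per 100 insulin UMIs, against 14.6 and 15.1 over all cells, so TTR in that class stood near the ratio of the whole library, and whether it came from free RNA was not tested.

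RBP4, the partner of TTR in plasma, had another order. It was highest in delta-like cells, at 55.9 CPM (53.5 to 58.4) in the no-DOX-labelled library and 65.7 CPM (62.5 to 69.0) in the DOX-labelled one. Beta-like cells had 39.6 CPM (38.5 to 40.6) and 48.4 CPM (47.3 to 49.5), and alpha-like cells 20.3 and 20.1 CPM. Beta cell progenitor-like cells stayed at 2.19 and 2.44 CPM, and the duct-like cells held 4 and 5 RBP4 UMIs in all. The delta-like, beta-like and alpha-like intervals did not overlap one another within a library, while those of the progenitor-like and duct-like cells did. Without the 1% of cells with most RBP4, delta-like cells had 42.4 and 51.6 CPM and beta-like cells 11.8 and 18.6 CPM. In alpha-like cells 4.57 and 8.13 CPM remained, so the gaps between classes depended on few cells.

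The apolipoproteins were both present in alpha-like cells but differed elsewhere. APOA1 reached 420 CPM (415 to 425) in alpha-like cells of the no-DOX-labelled library and 391 CPM (386 to 396) in those of the other. In the other endocrine classes it lay close together, with 193 and 141 CPM in beta-like cells, 207 and 144 CPM in delta-like cells and 196 and 148 CPM in beta-progenitor-like cells. Of these neighbours in the order, beta-like and progenitor-like cells had overlapping intervals in the no-DOX-labelled library, and in the DOX-labelled one delta-like cells overlapped with both. APOA2 was at 141 and 132 CPM in alpha-like cells, at 141 and 46.6 CPM in beta-like cells, and at 14.7 and 5.50 CPM in delta-like cells. Much of this came from few cells. Without the 1% of cells with most APOA2, alpha-like cells had 54.57 and 43.71 CPM and beta-like cells 47.54 and 18.43 CPM. Delta-like cells then had 5.572 and 3.515 CPM. The duct-like APOA2 level of 393 and 134 CPM also rested on few cells. A single cell of the no-DOX-labelled library held 883 of the 973 APOA2 UMIs of the class (90.8%), and 1 of the DOX-labelled one held 281 of 405 (69.4%). Without them the duct-like level was 37.1 and 41.4 CPM.

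Of the inhibitors, SERPINA1 marked the duct-like cells. Its level there was 3382 CPM in the no-DOX-labelled library and 3727 CPM in the DOX-labelled one, followed by alpha-like cells at 397 and 442 CPM and delta-like cells at 320 and 204 CPM. Beta-like cells had 77.1 and 59.1 CPM and beta-progenitor-like cells 51.9 and 33.5 CPM. Unlike TTR, SERPINA1 was far above the whole-library ratio to insulin in duct-like cells, with 181.6 and 254.9 UMIs per 1000 insulin UMIs against 1.34 and 1.21 over all cells. ITIH1 took the opposite place, with 2 UMIs (0.808 CPM) and 1 UMI (0.331 CPM) in all duct-like cells. It was highest in alpha-like cells at 27.1 CPM (25.9 to 28.3) and 20.5 CPM (19.4 to 21.8), and in beta-progenitor-like cells it stood at 23.3 and 10.8 CPM. Beta-like cells, at 8.30 and 3.83 CPM, had the lowest ITIH1 level of the 4 endocrine classes.

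FABP1 was the member most tied to beta-like cells. Its level there was 208.5 CPM (206 to 210.9) in the no-DOX-labelled library and 130.5 CPM (128.7 to 132.3) in the DOX-labelled one. Alpha-like cells had 8.80 and 18.2 CPM, beta-progenitor-like cells 9.83 and 9.99 CPM, and delta-like cells 5.89 and 4.35 CPM. The gap between beta-like and every other endocrine class was far larger than the counting intervals in both libraries. AFP was at 38.2 and 16.4 CPM in alpha-like cells, at 21.4 and 10.9 CPM in beta-like cells and at 1.02 and 0.789 CPM in beta-progenitor-like cells. The duct-like AFP level was 29.1 CPM in the no-DOX-labelled library and 99.1 CPM in the DOX-labelled one, where a single cell held 245 UMIs, 81.9% of the total, and 18.0 CPM remained without it. The class is small enough for its bounds to matter, since the finer duct-like cluster (152 and 177 cells in place of 151 and 177) had 78.9 and 99.1 CPM of AFP.

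**Figure D1:**
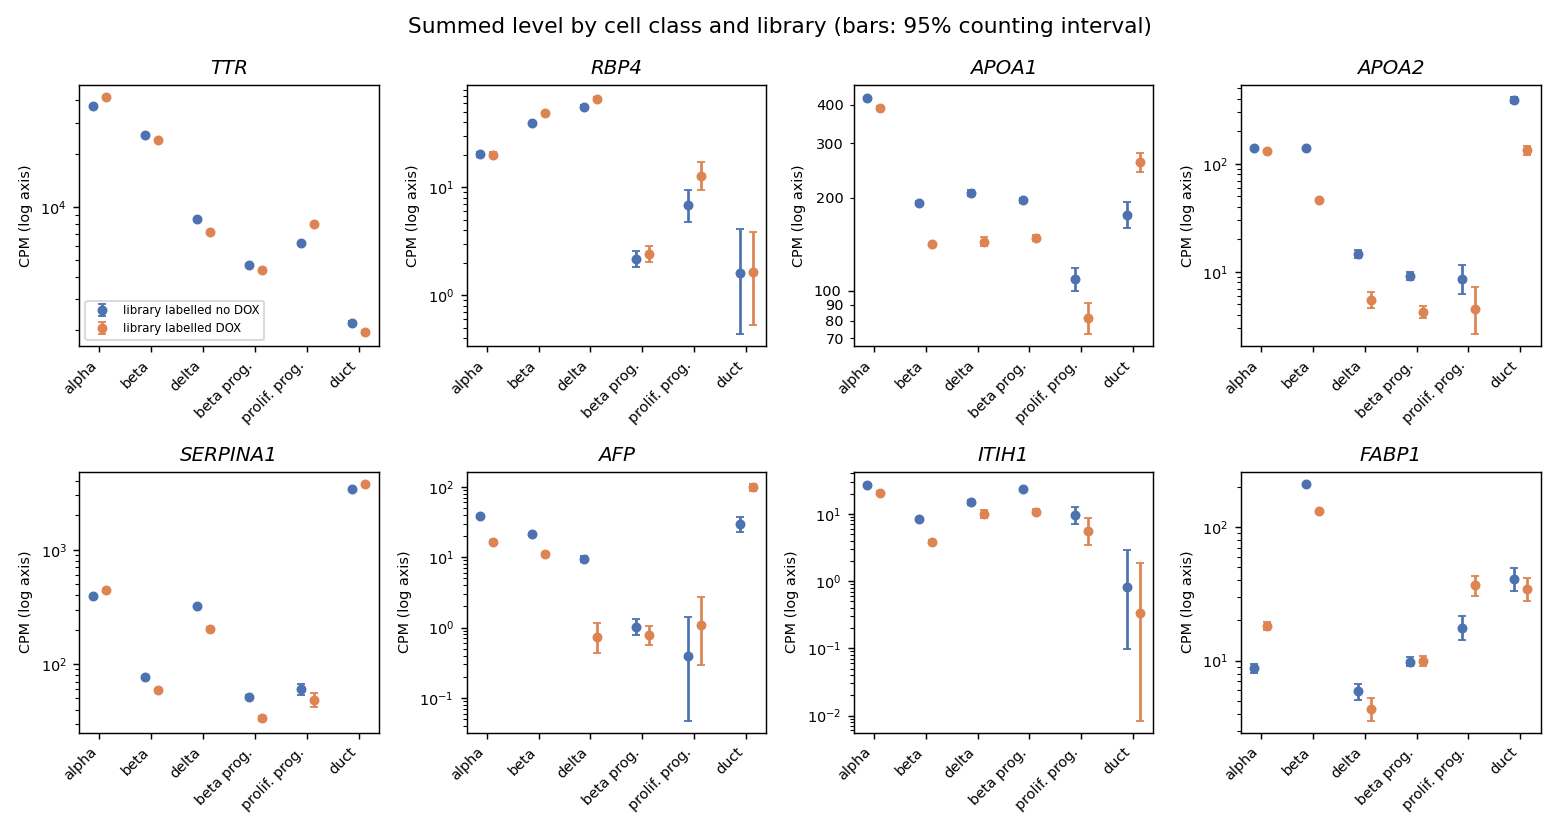
Summed level (CPM, log axis, a separate scale for each gene) of the 8 genes in the 6 named cell classes, blue for the no-DOX-labelled library and orange for the DOX-labelled one, with bars for the exact 95% counting interval. TTR, APOA1 and ITIH1 were highest in alpha-like cells in both libraries, RBP4 in delta-like cells, FABP1 in beta-like cells and SERPINA1 in duct-like cells, where APOA2 in both libraries and AFP in the DOX-labelled one rested on single cells.

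The classes were then compared with one another, and a difference was counted when it reached 2-fold in the same direction in both libraries. The cells were grouped without the 8 genes but from the same RNA profiles, so these counts describe the classes and are no test. A gene entered with at least 5 CPM in either group, so one low in the other group had to differ. In alpha-like over beta-like cells 3 of the 8 genes were higher, where 6.39% of 10465 genes were, and 1 was lower, where 4.67% were. The higher ones were APOA1 (log2 ratio 1.12 and 1.47 in the no-DOX-labelled and DOX-labelled libraries), SERPINA1 (2.36 and 2.90) and ITIH1 (1.71 and 2.42), and the lower one was FABP1 (-4.57 and -2.84). In delta-like over beta-like cells SERPINA1 was higher (2.05 and 1.79; 4.42% of all genes were), and 4 genes were lower against 5.34% of all genes. Those were TTR (-1.59 and -1.72), APOA2 (-3.26 and -3.08), AFP (-1.18 and -3.89) and FABP1 (-5.15 and -4.91). In the no-DOX-labelled library 1 delta-like cell held 75.7% of the AFP UMIs of its class. The delta-like AFP level there was 9.401 CPM with that cell and 2.289 CPM without it.

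The beta-progenitor-like cells differed from the beta-like cells in 6 of the 8 genes. TTR (log2 ratio -2.44 in both libraries), RBP4 (-4.18 and -4.31), APOA2 (-3.93 and -3.46), AFP (-4.39 and -3.79) and FABP1 (-4.41 and -3.71) were lower, against 3.6% of 11001 genes. The median log2 ratio was -3.07 over the 8 genes and 0.60 over all genes. ITIH1 was the exception, higher at 1.49 and 1.5, as were 24.8% of all genes. In duct-like over endocrine cells SERPINA1 (4.27 and 4.74) and APOA2 (1.99 and 1.38) were higher, where 17.8% of all genes were. TTR (-3.34 and -3.50), RBP4 (-4.19 and -4.44), ITIH1 (-4.35 and -4.73) and FABP1 (-1.26 and -1.16) were lower, where 14.9% were, and with the 1% of cells holding most APOA2 left out the APOA2 ratio was -1.48 in the no-DOX-labelled library.

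Within the beta-like cells the genes were not evenly spread either. At a finer resolution 4797 cells carried markers of the population that the study calls Beta-1, among them MFAP4 and NPPC, and 5986 cells those of Beta-2, among them WSCD2 and EBF1. In Beta-1-like over Beta-2-like cells 6 of the 8 genes were higher by 2-fold or more in both libraries, where 2.72% of 10269 genes were, and 0 were lower. FABP1 was at 364 and 228 CPM in Beta-1-like cells and at 6.69 and 6.87 CPM in Beta-2-like cells, which gave log2 ratios of 5.76 (5.61 to 5.92) and 5.05 (4.90 to 5.21). AFP was at 23.6 and 14.1 CPM against 2.13 and 0.429 CPM, which gave 3.47 and 5.03. RBP4 was at 48.9 and 91.2 CPM against 9.51 and 9.94 CPM, which gave 2.36 and 3.20. APOA2 (2.42 and 2.96), APOA1 (1.62 and 1.69) and SERPINA1 (1.59 and 1.67) followed, while TTR (0.65 and 0.56) and ITIH1 (0.62 and 0.70) stayed under 2-fold. TTR, APOA2 and FABP1 are in the study's own list of Beta-1 genes, drawn from these libraries, so their place here is not independent of it.

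A cluster of 7247 cells was left without a name, since the markers of its best class, Beta-1, had a mean log2 fold of 0.79, under the minimum of 1. Its leading genes were metallothioneins (MT1B, MT1M and MT1H), which bind zinc. Its TTR level, 35249 and 30670 CPM, lay between those of the beta-like and alpha-like classes in both libraries. The finer clusters divide the same cells as the classes, so the beta-like level can include cells of this cluster. Insulin in the cluster was at 213952 and 213979 CPM, against 193262 and 192885 CPM in the beta-like class. The cluster held 294 and 82.2 CPM of APOA2, 315 and 215 CPM of APOA1, and 271 and 156 CPM of FABP1. The Beta-1-like cells had more FABP1 than this cluster in both libraries but less TTR, APOA1 and APOA2.

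**Figure D2:**
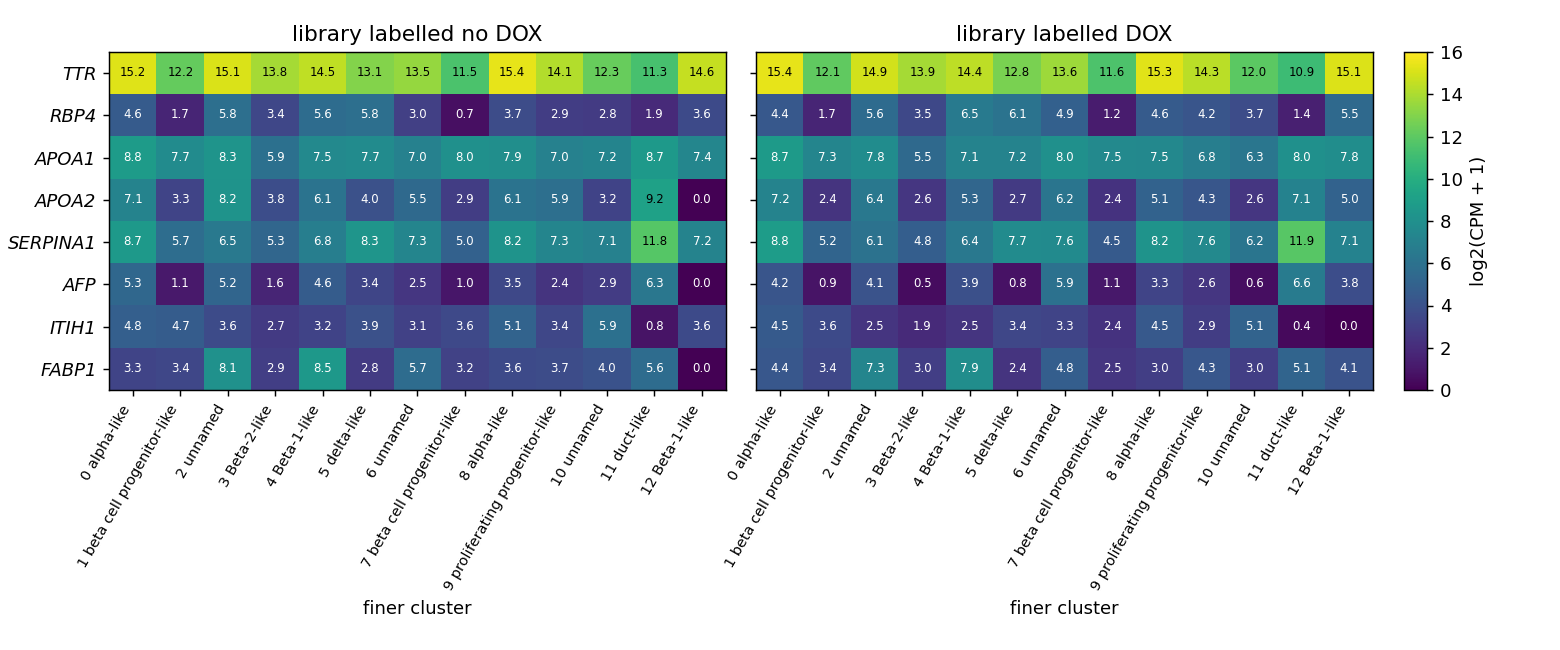
Level of the 8 genes, as log2(CPM + 1), in the 13 finer clusters for each library, with the number in each square. FABP1 stood out in the Beta-1-like cluster 4 and the unnamed cluster 2, and SERPINA1 in the duct-like cluster 11. Cluster 12 held 155 cells.

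The level of a class can come from many cells or few, so each cell was thinned to 5000 UMIs, which removed the difference in depth, and 40156 cells were deep enough. TTR was found in about 100% of them. The share with at least 1 UMI was 39.4% for APOA1, 34.4% for SERPINA1, 8.57% for FABP1, 7.38% for APOA2, 5.30% for RBP4, 4.83% for ITIH1 and 1.99% for AFP. The 1% of cells with most of each gene (401 cells) held 6.86% of TTR UMIs, 22.1% of SERPINA1 UMIs and 24.2% of APOA1 UMIs. They held 48.6% of the FABP1 UMIs, 62.4% of the RBP4 UMIs, 66.5% of the APOA2 UMIs and 83.9% of the AFP UMIs. For ITIH1 the share was 37.6%, with no cell above 7 UMIs. AFP and APOA2 were thus concentrated in few cells. Detection of TTR does not separate the classes, since even duct-like cells, where its level was lowest, held a TTR UMI in 98.6% and 100.0% of thinned cells, and the part of free RNA in this was not tested.

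**Figure D3:**
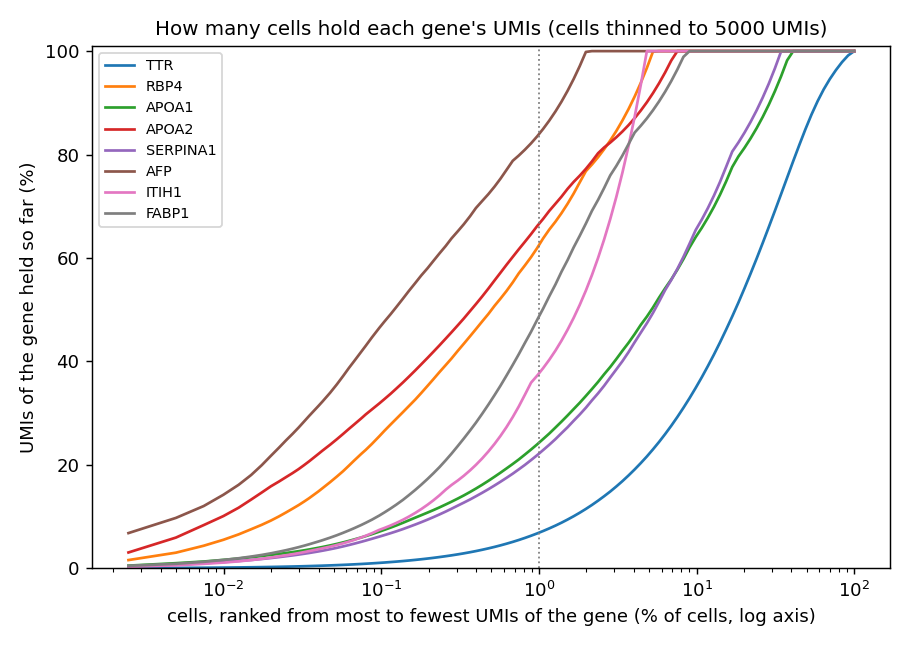
Share of each gene's UMIs (percent) held by cells ranked from most to fewest UMIs of that gene (percent of 40156 cells, log axis), each cell thinned to 5000 UMIs. At the dotted line, 1% of cells, the curves ran from 6.86% for TTR to 83.9% for AFP.

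The same gene could be spread in 1 class and concentrated in another. RBP4 was found in 15.2% (13.8 to 16.7) and 17.3% (15.6 to 19.1) of delta-like cells, where the top 1% of cells held 24.1% of its UMIs. In beta-like cells it was found in 5.12% (4.61 to 5.67) and 7.07% (6.57 to 7.60) of cells, and the top 1% held 62.3%. The share in beta-progenitor-like cells, which hardly held the gene, was 1.07% and 0.804% at the same depth of 5000 UMIs. SERPINA1 was found in 97.2% (93.1 to 99.2) and 94.3% (89.7 to 97.2) of duct-like cells, in 67.0% and 69.5% of alpha-like cells, and in 60.3% and 51.1% of delta-like cells. In beta-like cells that share was 23.4% and 19.1%, and in beta-progenitor-like cells 20.1% and 14.0%. A thinned beta-like cell held a mean of 0.353 and 0.264 SERPINA1 UMIs, so a cell without a UMI at this depth may still express the gene.

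FABP1 was found in 35.7% (33.6 to 38) and 28.1% (26.5 to 29.8) of Beta-1-like cells. In Beta-2-like cells the share was 3.13% and 2.94%, close to the 3% and 2.79% of alpha-like cells and not far above the 1.99% and 2.01% of delta-like cells. APOA1 was found in 48.4% and 42.5% of beta-progenitor-like cells against 32.5% and 29.2% of beta-like cells. The mean at this depth was 0.996 and 0.777 UMIs per beta-progenitor-like cell and 0.774 and 0.610 per beta-like cell, and the top 1% of cells held 11.8% and 11.5% of the APOA1 UMIs in the former and 23.2% and 22.1% in the latter.

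In beta-like cells, the cells with most of 1 member had higher means of the others, though most top cells were not shared. The share of top cells in common ran from 4.82% for RBP4 and ITIH1 to 35.5% for APOA1 and APOA2. ITIH1 and AFP were found in 1.96% and 2.32% of thinned beta-like cells, so their top 166 reached down to cells with 1 UMI. Among cells tied at 1 UMI the level before thinning set the order, so shares with these genes depend on ties. Among the 166 beta-like cells with most APOA1, mean APOA2 was 60-fold that of the rest of the class (10.8 against 0.179 UMIs per thinned cell), mean AFP 39.6-fold, mean RBP4 19.5-fold and mean FABP1 13.9-fold. TTR was 2.70-fold higher in them, at 308.8 against 114.4 UMIs. Of these cells 72.9% had an APOA2 UMI, against 7.60% of the rest. In the 166 beta-like cells with most TTR, APOA2 was 42.0-fold, RBP4 22.0-fold and APOA1 12.1-fold that of the rest. RBP4 was found in 22.3% of the top APOA1 cells and 22.3% of the top TTR cells, against 6.1% of the rest. The 1% of beta-like cells with most RBP4 held 62.3% of its UMIs, so its means rested on few cells. The ratios of means across all 56 ordered pairs of genes lay above 1, from 1.49 for TTR in the top RBP4 cells upward.

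**Figure D4:**
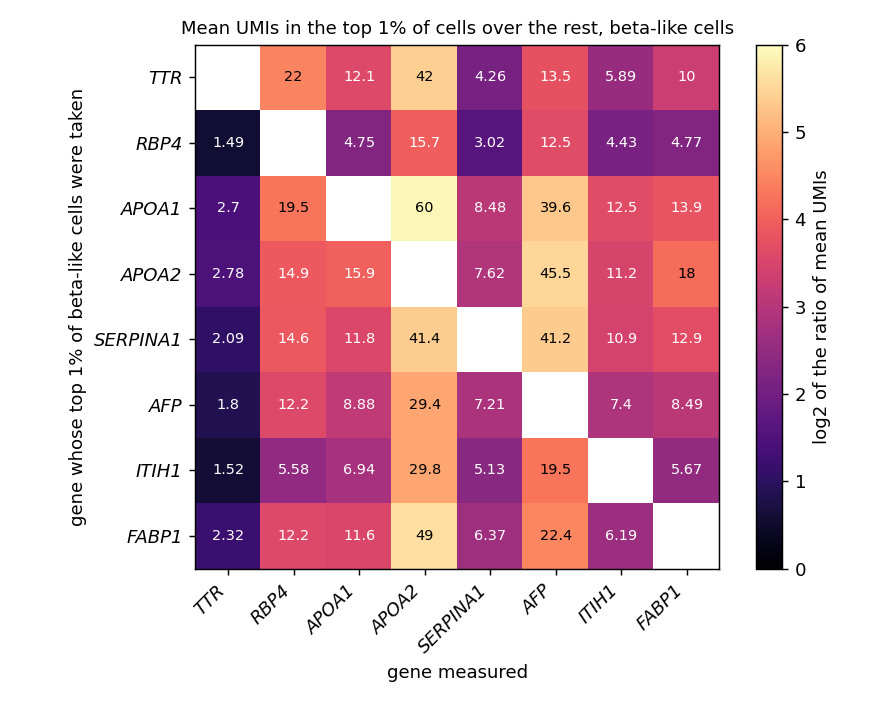
For the 166 beta-like cells (1%) with most of the gene on the y axis, the mean UMIs of the gene on the x axis divided by its mean in the rest of the beta-like cells, printed in each square and coloured by its log2. Every square off the diagonal was above 1, with the highest value for APOA2 in the top APOA1 cells (60).

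RBP4 in alpha-like cells gave mixed values. The 1% of these cells with most RBP4 held 76.3% of its UMIs after thinning. A single thinned cell held 91, so the means of RBP4 there rested on few cells. In alpha-like cells the 84 cells with most TTR had 9.58-fold the APOA1, 33.6-fold the APOA2 and 40.6-fold the AFP of the rest, but 0.870-fold the RBP4. The share of cells with an RBP4 UMI was nevertheless 8.33% in those cells against 3.21% in the rest. The 84 cells with most APOA1 had 0.995-fold the RBP4, those with most FABP1 4.24-fold and those with most AFP 8.41-fold. Spearman's rho was also taken across all beta-like cells, given for the no-DOX-labelled and then the DOX-labelled library. It was 0.30 and 0.25 for TTR and APOA1, 0.32 and 0.22 for APOA1 and APOA2, and 0.32 and 0.26 for APOA2 and FABP1. The pairs with RBP4 ran from -0.03 to 0.05 in the no-DOX-labelled library. Some pairs without RBP4 were also low there, such as AFP and ITIH1 (0.06) and TTR and AFP (0.08). In beta-progenitor-like cells no pair was above 0.08 in either library. These are descriptions over 6856 and 9747 beta-like cells, thinned to the same depth. In alpha-like cells TTR and SERPINA1 had a rho of 0.42 and 0.40 in the no-DOX-labelled and DOX-labelled libraries.

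The insulin level of the cells with most of a gene differed from gene to gene. Of the 401 cells with most APOA2, 132 and 85 were beta-like in the no-DOX-labelled and DOX-labelled libraries, and their median insulin level was 164452 and 165011 CPM, against 192685 and 191219 CPM in the class. They were deeper than the class, with medians of 29857.5 and 22026 UMIs against 18512 and 14971, and the part of depth or of undetected doublets in the pattern was not tested. Of the 401 cells with most TTR, 170 and 194 were alpha-like, with a median insulin level of 81261 and 86418 CPM against 136186 and 103434 CPM. Of the 401 cells with most SERPINA1, 99 and 100 were duct-like, with a median insulin level of 9692 and 9515 CPM against 9992 and 9787 CPM in the class. Of the 401 cells with most AFP, 94 and 103 were beta-like, with a median insulin level of 197101 and 210331 CPM. Another 108 and 67 were alpha-like, at 87177 and 75242 CPM against 136186 and 103434 CPM in the class. AFP was found in 1.99% of all thinned cells, so these 401 reached down to cells with 1 UMI. Ties at 1 UMI were ordered by the level before thinning.

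Between the libraries, TTR kept its level and 5 of the other genes were lower in the DOX-labelled library. A gene was counted as lower when the DOX-labelled level was at least 20% below the no-DOX-labelled level, and as higher when it was at least 25% above. Of the 10444 genes with at least 5 CPM in either library, 1.99% were lower and 1.16% higher by this rule. Over all cells APOA2 was at 99.5 and 52.1 CPM, a log2 ratio of -0.93 (-0.96 to -0.90). ITIH1 was at 16.2 and 8.69 CPM (-0.90, -0.97 to -0.83) and AFP at 19.4 and 10.6 CPM (-0.87, -0.93 to -0.81). APOA1 was at 244 and 190 CPM (-0.36) and FABP1 at 95.4 and 74.9 CPM (-0.35). SERPINA1 (-0.19), TTR (0.01) and RBP4 (0.30, 0.26 to 0.34) stayed within these limits, and 0 of the 8 genes were higher by that amount. Leaving out the 403 cells whose barcode was in both libraries kept the count of genes past the limits at 5. The median log2 ratio was -0.35 over the 8 genes and -0.01 over all genes. APOA1, SERPINA1 and ITIH1 are in the study's list of genes that differ between these libraries, so their ratios are not independent of it.

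Since the libraries differed in their mix of classes (7236 and 10059 beta-like cells, for example), the ratio was also taken within each class. In beta-like cells 6 of the 8 genes were lower by this rule, where 2.6% of genes were. APOA2 in this class was at 141 and 46.6 CPM, a log2 ratio of -1.59, and was found in 10.7% (10.0 to 11.5) and 6.49% (6.01 to 7) of thinned cells. ITIH1 (-1.12), AFP (-0.97), FABP1 (-0.68), APOA1 (-0.45) and SERPINA1 (-0.38) were the others. ITIH1 reached the minimum of 5 CPM in beta-like cells only in the no-DOX-labelled library, where it was higher, so its place in that count follows in part from the minimum. In delta-like cells the same 6 genes were lower, where 1.58% of genes were, with SERPINA1 at -0.65, APOA1 at -0.52 and AFP at -3.67. The delta-like AFP value rested on a single cell with 255 UMIs, 75.7% of the AFP of its class and library, and was -1.89 without it. AFP and FABP1 reached 5 CPM in delta-like cells only in the no-DOX-labelled library, and without its top cell AFP would not have reached it (2.29 and 0.616 CPM).

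In beta-progenitor-like cells 4 of the 6 genes with enough counts were lower, where 1.81% of genes were. They were APOA2 (-1.13), ITIH1 (-1.11), SERPINA1 (-0.63) and APOA1 (-0.40), of which APOA2 (9.22 and 4.22 CPM) reached the minimum only in the library where it was higher. Alpha-like cells showed less, with 2 of 8 genes lower (AFP at -1.22 and ITIH1 at -0.40), where 1.69% of genes were. A single cell of the no-DOX-labelled library held 428 AFP UMIs, 15.7% of the total, and the alpha-like AFP ratio was -0.50 (-0.70 to -0.31) without the top 1% of cells. FABP1 was higher there (3.2% of genes were), at 8.80 and 18.2 CPM, a log2 ratio of 1.05 (0.90 to 1.19). A single alpha-like cell of the DOX-labelled library held 195 FABP1 UMIs, 19.2% of the total, and with the 1% of cells holding most FABP1 left out of each library the ratio was 0.12. Of the other alpha-like ratios APOA1 was at -0.10 and TTR and SERPINA1 at 0.16 each. APOA2 was at -0.09 and RBP4 at -0.01, but at -0.32 (-0.39 to -0.25) and 0.83 (0.62 to 1.04) without the top 1% of cells.

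The smaller classes held genes past these limits in both directions, and more of all genes were past them there. In proliferating progenitor-like cells (278 and 237 cells) 3 of 7 genes with enough counts were lower and 3 higher, where 9.18% and 10.2% of genes were. APOA2 (-0.92), ITIH1 (-0.77) and APOA1 (-0.42) were lower, of which APOA2 reached 5 CPM only in the no-DOX-labelled library. FABP1 (17.6 and 36.5 CPM, a log2 ratio of 1.05), RBP4 (6.86 and 12.9 CPM, 0.91, 0.25 to 1.58) and TTR (0.35) were higher. Without the top cell of each library the FABP1 ratio was 0.36 (-0.18 to 0.90) and the RBP4 ratio 0.72 (-0.10 to 1.54). In duct-like cells (151 and 177 cells) 1 of 6 genes, APOA2, was lower and 2, AFP and APOA1, were higher, where 20.2% and 18.1% of genes were. Without the top cell of each library the APOA2 ratio there moved from -1.55 to 0.16 and the AFP ratio from 1.77 to -0.43. In the finer duct-like cluster APOA1 was instead lower (410.5 and 260.8 CPM, -0.65).

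ITIH1 was lower in the DOX-labelled library in each of the 6 named classes, though the interval of the duct-like ratio, from 2 UMIs and 1 UMI, held 0 (-7.17 to 2.98). With the 1% of cells holding most of it left out, its ratio was -1.10 over all cells, -1.33 in beta-like, -1.25 in beta-progenitor-like, -0.53 in alpha-like and -0.63 in delta-like cells. It was found in 8.58% (7.80 to 9.40) and 4.74% (4.17 to 5.37) of beta-progenitor-like cells. The beta-like ratios of APOA2 (-1.37), FABP1 (-0.70), APOA1 (-0.41) and SERPINA1 (-0.39) also stayed below 0 without the top 1% of cells. AFP moved from -0.97 to -0.34 in beta-like cells and from -0.87 to -0.39 over all cells. With the named classes weighted equally its ratio was 0.38, but 1 cell held 81.9% of the duct-like AFP UMIs of the DOX-labelled library.

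RBP4 differed between the finer clusters of beta-like type. In Beta-1-like cells it was at 48.9 and 91.2 CPM, a log2 ratio of 0.90 (0.82 to 0.98), and in Beta-2-like cells at 9.51 and 9.94 CPM (0.06, -0.12 to 0.24). In the unnamed cluster of 7247 cells it was at 55.6 and 47.3 CPM (-0.23, -0.31 to -0.16). The share of Beta-1-like cells with RBP4 was 8.06% (6.86 to 9.39) and 11.7% (10.6 to 13.0). In delta-like cells its ratio was 0.23 (0.14 to 0.33). In alpha-like cells 1 cell of the no-DOX-labelled library held 310 RBP4 UMIs, 21.4% of the total, and without the top 1% of cells the alpha-like ratio moved from -0.01 to 0.83, the beta-like ratio from 0.29 to 0.66 and the ratio over all cells from 0.30 to 0.53. Over the 6 named classes TTR lay between -0.24 in delta-like cells and 0.35 in proliferating progenitor-like cells, and over the finer clusters between -0.40 in the duct-like one and 0.52 in the smaller Beta-1-like one.

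**Figure D5:**
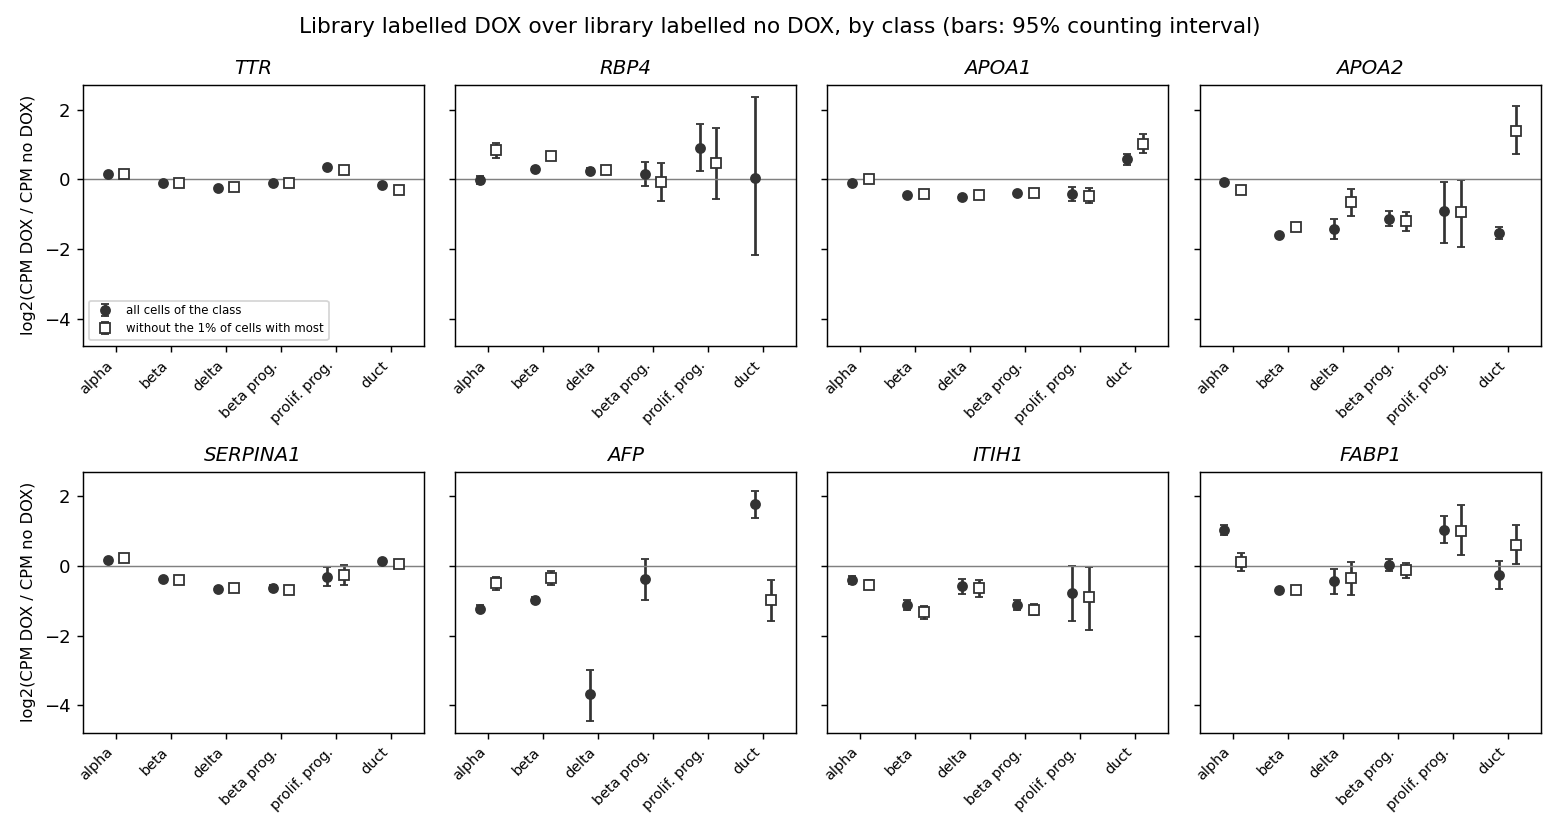
Log2 ratio of the DOX-labelled library over the no-DOX-labelled one for the 8 genes in the 6 named classes, filled circles for all cells of the class and open squares without the 1% of cells with most of the gene, with bars for the 95% counting interval. Values without UMIs in a library, or with an interval spanning 6 or more log2 units, are not drawn. ITIH1 lay below 0 in every class drawn, and the duct-like APOA2 and AFP values changed sign when the top cells were left out.

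Most genes that define hepatocytes were low. Of 16 hepatocyte-defining genes, 0 reached 10 CPM in any named class with both libraries summed, as in the lists of other genes that follow, 10 stayed below 1 CPM in every class, and ARG1, the urea cycle arginase, had 0 UMIs. The highest was ASGR1, a subunit of the asialoglycoprotein receptor, named after its value was seen, at 5.24 and 5.13 CPM over all cells and at 11.3 and 7.29 CPM in duct-like cells, so that it passed 10 CPM in 1 library. Their summed level was 14.6 CPM in the no-DOX-labelled library and 11.8 CPM in the DOX-labelled one. Albumin (ALB) was at 4.34 and 1.91 CPM over all cells, and 307 cells (0.683%) held an ALB UMI. Of 14 enterocyte-defining genes 3 reached 10 CPM. VIL1 was highest in beta-progenitor-like cells at 204 CPM but stood at 143.9 and 144.6 CPM over all cells, and GUCA2A was at 351 CPM in duct-like cells. Of 2 tested CDX2, named after its value was seen, was higher past the limits, at 3.98 and 5.04 CPM (log2 ratio 0.34). By this rule 1.16% of all genes were higher. CDX2 reached the minimum of 5 CPM only in the library where it was higher. Of 9 visceral and early endoderm genes 3 reached 10 CPM, with GATA6 highest at 65.6 CPM in duct-like cells, and 0 of 2 tested were past these limits.

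Most ALB UMIs sat in few cells. The 31 cells with at least 10 ALB UMIs (22 and 9 in the no-DOX-labelled and DOX-labelled libraries) held 75.6% of all ALB UMIs, and 17 of them were beta-like and 10 alpha-like. Their median insulin level was 165152 CPM. Median TTR in them was 76516 and 88976 CPM in the no-DOX-labelled and DOX-labelled libraries, median APOA1 3133 and 2572 CPM, and median AFP 1340 and 728.5 CPM. The libraries differed for APOA2, with medians of 4021 and 133 CPM, for FABP1, with 1110.3 and 55.3 CPM, and for RBP4, with 92.9 and 0 CPM, over 22 and 9 cells. Their median insulin level lay between the summed levels of alpha-like cells (146014 CPM) and beta-like cells (193262 CPM) in the no-DOX-labelled library.

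Related genes were read from lists of the same families. Of 15 other plasma carriers 5 reached 10 CPM in a class, led by CLU at 2917 CPM and AMBP at 1117 CPM in alpha-like cells, and GC, the vitamin D carrier, was the 1 of 5 tested past these limits, at 27.1 and 19.7 CPM (log2 ratio -0.46), where 1.99% of all genes were lower. Of 17 other apolipoproteins and assembly genes 7 did, with APOE at 671 CPM and APOC1 at 306 CPM in duct-like cells and APOC3 at 359 CPM in alpha-like cells, and 0 of 5 tested were past these limits. APOA1 and APOA2 were thus lower between the libraries while APOC3 (log2 ratio 0.06), APOE (-0.10) and APOC1 (-0.08) stayed within it. Of 13 other secreted serpins 6 reached 10 CPM, with SERPINA5 (211 CPM) and SERPINF1 (83.6 CPM) both highest in duct-like cells, as SERPINA1 was, and 0 of 4 tested were past these limits.

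Most other genes of the ITIH1 family were low, but the gene of the light chain was not. Of 7 other genes of the inter-alpha-trypsin inhibitor family 5 stayed below 1 CPM in every class, and AMBP, which encodes bikunin, the light chain of the inhibitor, was the only one at 10 CPM or more, at 1016 and 829 CPM over all cells (log2 ratio -0.29). Of 9 other fatty acid binding proteins 2 reached 10 CPM, with FABP5 at 380 CPM in duct-like cells, and 0 of 2 tested were past these limits. Of 16 genes of retinol handling 6 did, among them ALDH1A1, which makes retinoic acid, at 484 CPM in alpha-like cells. Higher past these limits were 2 of 7 tested, LRAT (0.50), which esterifies retinol, and STRA6 (0.42), the receptor for RBP4, both named after their values were seen, where 1.16% of all genes were higher. STRA6, at 4.13 and 5.53 CPM, reached the minimum of 5 CPM only in the library where it was higher.

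Of 21 coagulation, complement and acute phase genes 10 reached 10 CPM, with F10 at 372 CPM in alpha-like cells and A1BG and PROC above 50 CPM. Vitronectin (VTN), highest in delta-like cells at 109 CPM, was the 1 of 7 tested past these limits, at 69.07 and 52.04 CPM over all cells (-0.41), where 1.99% of all genes were lower. Of 20 liver-enriched transcription factors 16 reached 10 CPM, and 3 reached 50 CPM, namely ONECUT2 (466 CPM in beta-progenitor-like cells), FOXA2 (204 CPM in delta-like cells) and PROX1 (138 CPM in duct-like cells). Of these factors 0 of 14 tested were past these limits between the libraries.

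For each gene the 3 genes with the most similar profile were taken, by Pearson's r of log2(CPM + 1) over 24 profiles (the finer clusters with at least 50 cells in both libraries, each library apart) among 9033 genes. For APOA2 the nearest was AFP (r = 0.90), followed by C14orf105 (0.83) and PLIN2 (0.82), and for AFP it was APOA2. For APOA1 they were AFP (0.67), APOC1 (0.67) and APOA2 (0.66), the lowest values of the 8 genes. FABP1 went with AKAP12 (0.84), MT1M (0.82) and NPPC (0.81), of which AKAP12 and NPPC are Beta-1 markers. For TTR they were IMPA2 (0.95), AQP3 (0.94) and PLPPR5 (0.94), and for RBP4 ERN1 (0.93), SDK1 (0.87) and SSR4 (0.87). SERPINA1 was nearest to WWC2 (0.91), EPHB4 (0.90) and RARRES2 (0.90), and ITIH1 to PEMT (0.90), CRACR2B (0.84) and DUSP15 (0.83). The profiles of 1 library share its depth, so these values are descriptions.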

How the data were processed

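Single-cell RNA from 2 libraries, 1 per label, was read from the deposited matrices, which hold raw UMI counts per gene and barcode made by the authors and not normalized (33694 genes, GRCh38). The file headers name Cell Ranger 3.0.2, the submitters' processing notes name Cell Ranger 3.0, kallisto, bustools 0.40.0, Scanpy and Seurat, and the methods name kallisto and bustools, so which tool made the counts was not settled. Whether strand was used in counting was not given in the sources used here. A different counter would change how reads of overlapping genes are assigned.

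Barcodes under 1000 UMIs were dropped, as were doublets that Scrublet called in each library. Counts were scaled to 10000 per cell and clustered without the 8 genes and the listed related genes, with total UMIs and mitochondrial share regressed out (scanpy 1.11.5, 50 principal components, 3 neighbours per library, leidenalg 0.10.2 at resolutions 0.2 and 0.5, seed 0). A cluster was named when a class's markers had a mean log2 fold of at least 1, at least 3 of them passed that fold, and no other class had more markers among its 10 leading genes. The markers came from the study's lists of these libraries, so names are not independent of the data.

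Counts were summed per class and library and given as CPM with exact 95% intervals (scipy 1.17.1). Shares of cells used cells thinned to 5000 UMIs, with Clopper-Pearson intervals. With 1 library per label no test between conditions was possible, and libraries were compared by size (20% lower or 25% higher, genes with at least 5 CPM in either library). The code for ratios and their intervals was tried on counts simulated as independent, which the UMIs of 1 cell are not. The members and lists were chosen with earlier results of these data known. Named were all 8 members, ALB, SOX9, list genes of at least 50 CPM in a class, and the 3 genes most alike to each member. APOA1, SERPINA1 and ITIH1 are in the study's list of genes differing between these libraries, and TTR, RBP4, APOA2, SERPINA1 and FABP1 are in its cell type lists. Positions are from GENCODE 44. Leaving out the 1% of cells with most of a gene, and the barcodes both libraries hold, was chosen after seeing the data. Some listed genes are not reported here.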

Additional observations from a re-analysis of the deposited data

Results flagged for a closer look

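For 3 genes the log2 ratio of the DOX-labelled library over the no-DOX-labelled one was past the limits (20% lower or 25% higher) in opposite directions in different classes. Smaller differences of sign were also seen, for TTR (0.16 in alpha-like and -0.24 in delta-like cells) and SERPINA1 (0.16 in alpha-like and -0.65 in delta-like cells), among others. The difference between classes was not tested, since each label had 1 library.

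APOA1 was higher in duct-like cells (0.57) and lower in beta-like (-0.45), beta-progenitor-like (-0.40), proliferating progenitor-like (-0.42) and delta-like cells (-0.52). A single duct-like cell held 43.2% of the class's APOA1 UMIs in the no-DOX-labelled library and another 34.8% in the DOX-labelled one, and without them the duct-like ratio was 0.75 (0.53 to 0.97). The sign turned on the bounds of the class: in the duct-like cluster of the finer resolution, with 152 cells in place of 151 in the no-DOX-labelled library and 177 in the other, APOA1 was at 410.5 and 260.8 CPM, a ratio of -0.65 (-0.79 to -0.52).

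AFP was higher in duct-like cells (1.77) and lower in beta-like (-0.97), alpha-like (-1.22) and delta-like cells (-3.67). Without the cell with most AFP in each library the duct-like ratio was -0.43 (-0.99 to 0.12) and the delta-like ratio -1.89, so the opposite sign in duct-like cells rested on 1 cell. In the finer duct-like cluster the AFP ratio was 0.33 (0.06 to 0.59).

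FABP1 was higher in alpha-like (1.05) and proliferating progenitor-like cells (1.05) and lower in beta-like (-0.68) and delta-like cells (-0.44). Without the 1% of cells with most FABP1 the alpha-like ratio was 0.12. In proliferating progenitor-like cells 1 cell of the DOX-labelled library held 57.4% of the FABP1 UMIs, and without the top cell of each library the ratio was 0.36, while without the top 1% of cells (3 in each library) it was 1.02 (0.31 to 1.75).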

How the results depend on the processing

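Over all cells 5 of the 8 genes were past the limits between the libraries (20% lower or 25% higher in the DOX-labelled one), all 5 lower. That count was 3 with every named class weighted equally and 3 with the call set at 1.5-fold, and 4 or 5 under the other settings. Without the 1% of cells with most of each gene it was also 5, but for other genes, with RBP4 (log2 ratio 0.53, higher) in and FABP1 (-0.22) out. Recomputed under an alternative were 1001 ratios of single genes (between libraries over all cells, and between classes; the ratios between libraries within a class are not among them), and 2 that had been past their limits changed sign. The AFP log2 ratio over all cells was 0.38 with every named class weighted equally. That gave duct-like cells the weight of the other classes, and 1 DOX-labelled duct-like cell held 81.9% of that class's AFP UMIs in its library. The APOA2 log2 ratio of duct-like over endocrine cells was -1.48 in the no-DOX-labelled library without the 1% of cells with most APOA2. Those cells held nearly all of the duct-like APOA2. Of the other ratios, 534 stayed within the counting interval and 465 moved outside it. Some of the latter, not past the limits before, also changed sign (SERPINA1 over all cells, and APOA1 between classes). Within duct-like cells the ratio between libraries changed sign without the top 1% of cells for APOA2 (-1.55 to 1.39), AFP (1.77 to -0.98) and FABP1 (-0.26 to 0.61). The counts of genes that differed between classes stayed within 1.5 times. With doublets kept no cluster was named beta-like, so 4 comparisons of classes could not be computed. No paired analysis was possible because each label had 1 library. The duct-like values of RBP4 and ITIH1 are imprecise, since they rested on 1 to 5 UMIs per library.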

Other observations

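An unnamed finer cluster of 554 cells (358 and 196 in the no-DOX-labelled and DOX-labelled libraries), led by BMP5, CTGF and CCK, held the most ITIH1 of any finer cluster, at 58.8 CPM (51.3 to 67.0) and 33.8 CPM (26.3 to 42.7). The next highest level was 32.96 CPM in an alpha-like cluster in the no-DOX-labelled library and 21.88 CPM in another alpha-like cluster in the DOX-labelled one.

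Fibrinogen beta chain (FGB), another liver-type plasma gene, reached 10 UMIs in 12 cells, of which 5 were duct-like cells of the DOX-labelled library. Both ALB and FGB reached 10 UMIs in 2 cells, both in the no-DOX-labelled library.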
